A study of Mus musculus with 24 samples.

Results

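Cytosolic ribosomal protein genes encode the proteins of the large and small subunits of the ribosome that translates nuclear messages. They were taken as every protein-coding mouse gene in the count table whose symbol begins with Rpl or Rps and a digit, or is Rplp0, Rplp1, Rplp2 or Rpsa, without the Rps6k kinases and symbols that contain -ps. The rule found 85 of 37991 genes. Of these, 42 encode large subunit proteins, 31 small subunit proteins and 3 the stalk proteins, which makes 76 core members. Another 8 are paralogs or retrocopies (Rpl3l, Rpl7l1, Rpl10l, Rpl22l1, Rpl36al, Rpl39l, Rps27l, Rps27rt). The last, Rps19bp1, encodes a protein that binds a ribosomal protein and is not itself one. Rpl24 is not analysed here.

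The tissue came from the nucleus accumbens of mice, a region of the ventral striatum with a role in reward and motivation, and all mice were of the C57BL/6J background. The labels give 8 groups of 3 libraries, each library made from pooled mRNA of 4 mice, so n counts libraries. The design text speaks instead of 3 mice per group, and the protocol's pooling was followed here. In the wild-type experiment, females and males were unstressed controls or had gone through subchronic variable stress. In the floxed experiment every mouse was stressed and carried the Dnmt3a2lox/2lox genotype, in which part of the DNA methyltransferase gene Dnmt3a is flanked by loxP sites, and received an AAV-GFP virus (control) or an AAV-CRE virus, which the design text describes as expressing CRE and GFP. Floxed controls therefore carried the allele, the virus and the stress, and no floxed group was unstressed. A virus reaches only part of the cells of a punch, and the labels name neither the promoter of the virus nor the share of cells infected. The protocol also names dorsal striatum for the punches.

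Every cell needs these proteins in near-equal numbers, since a single copy of most of them enters each ribosome, and their messages are among the most abundant of a cell. Many begin with a C followed by an unbroken run of pyrimidines, the terminal oligopyrimidine (TOP) motif, through which the mTOR pathway controls their translation. In neurons, ribosomal protein messages are also found in dendrites and axons, away from the cell body. In a bulk sample, fewer cells of a type and less RNA per cell cannot be told apart.

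The RefSeq promoter table (build GRCm38.p6) held 65 of the 85 members, each as windows of 300 bases from 250 before to 50 after the annotated start. A start was counted as TOP-like when its first transcribed base was C and each of the next 4 was C or T, read on the gene's strand only. Such a start was found for 14 of the 65 members (21.5%) and for 813 of 27025 genes in the table (3.01%). The letters CGGAAG, searched on both strands of the whole window, were found for 43 members (66.2%) and for 18.8% of all genes. A match is a description of the letters and not a shown site of binding. Windows of 10 bases before and 20 bases from the start on are shown for 6 members described later that hold such a run, because it is the best known sequence feature of this family's messages. Capitals mark the run of pyrimidines from the first transcribed base on.
Rplp2 (chr7:141447641-141447670, + strand): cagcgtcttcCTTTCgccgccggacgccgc
Rps6 (chr4:86857348-86857377, - strand): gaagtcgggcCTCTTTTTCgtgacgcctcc
Rps10 (chr17:27635225-27635254, - strand): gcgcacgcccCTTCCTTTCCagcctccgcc
Rps15a (chr7:118116128-118116157, - strand): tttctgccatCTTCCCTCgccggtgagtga
Rps18 (chr17:33955646-33955675, - strand): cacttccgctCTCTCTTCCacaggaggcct
Rpl35 (chr2:39005112-39005141, - strand): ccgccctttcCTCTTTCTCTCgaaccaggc
The run was 5 bases long in Rplp2, 8 in Rps15a, 9 in Rps6 and Rps18, 10 in Rps10 and 11 in Rpl35. A core member without such a run at this annotated start may start a few bases away, so the count says nothing of the other members' messages.

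Total counts per library ranged from 7116123 to 12145551 for wild-type mice, and from 28132563 to 59829070 for floxed mice. The experiments differ in genotype, virus and depth together and were fitted apart. Values of both are given side by side in places, and no difference between them is tested or read as a difference in level. Markers of medium spiny neurons, the main cells of the striatum, were present in all 24 libraries. Drd1 ranged from 138 to 335 CPM (counts-per-million, scaled with TMM factors here and in every CPM value below) and Ppp1r1b from 409 to 1521 CPM. Dnmt3a, the gene targeted by Cre, was at 162, 169 and 155 CPM in the GFP females and at 155, 150 and 140 CPM in the CRE females. It was at 182, 164 and 171 CPM in the GFP males and at 143, 137 and 138 CPM in the CRE males. Averaged over the sexes its log2 change was -0.21 (SE 0.04, edgeR adjusted p = 0.026), on a count that covers the whole gene and not only the flanked exons. In females alone the change was -0.12 (SE 0.06, edgeR adjusted p = 0.829), and the groups overlapped. In males alone the change was -0.3 (SE 0.06, edgeR adjusted p = 0.0149), without overlap.

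Together the 85 members took 0.629% ± 0.064 (SD, n = 3) of all counts in control females, 0.711% ± 0.152 in stressed females, 0.72% ± 0.152 in control males and 0.848% ± 0.088 in stressed males. In the floxed experiment the share was 1.116% ± 0.04 in GFP females, 1.155% ± 0.063 in CRE females, 1.188% ± 0.061 in GFP males and 1.123% ± 0.113 in CRE males. Within each experiment the groups overlapped except that the stressed males, at 0.95%, 0.791% and 0.804%, were all above the control females, at 0.703%, 0.587% and 0.597%. The libraries numbered 1 had the highest share in each of the 4 wild-type groups: 0.703% in control females, 0.884% in stressed females, 0.893% in control males and 0.95% in stressed males.

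**Figure D1:**
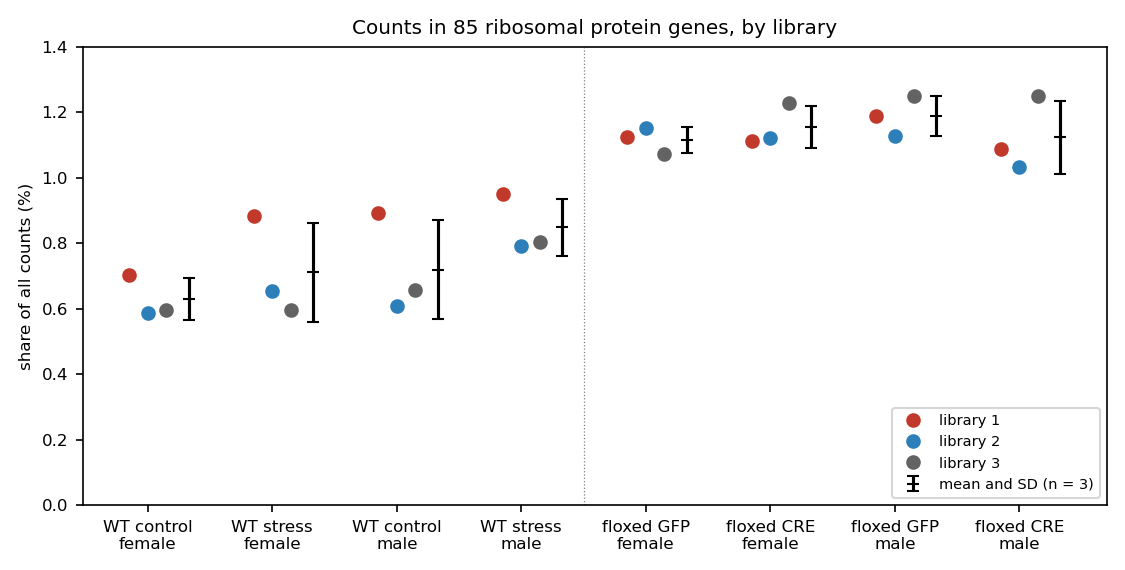
Share of all counts (y axis, %) in the 85 members for each library of the 8 groups (x axis), coloured by library number, with the mean and SD of 3 libraries. Wild-type libraries lie between 0.587% and 0.95%, with the library numbered 1 highest in each group, and every floxed library lies above 1.03%.

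Within the wild-type experiment the coefficient of variation of a member over the 12 libraries had a median of 24% and ranged from 9.18% for Rpl12 to 125% for Rpl23a. In the floxed experiment the median was 7.36%, from 3.41% for Rpl15 to 29.3% for Rpl3l. Counting how many of the 81 members tested in wild-type mice had their highest level in each library gave 24 for stressed male 1, 17 for control male 1 and 10 for stressed female 1. No member was highest in control female 2 or 3, control male 2 or stressed female 3. Control female 1 had 9 members at their highest and 18 at their lowest level. Among those highest were Rpl23a, at 211 CPM against 8.96 to 80.9 CPM in the other 11 libraries, and Rps26, at 138 CPM against 40.9 to 95.8 CPM. Among those lowest were Rpl10, at 25.6 CPM, Rpl39, at 9.53 CPM, and Rpl22l1, at 1.82 CPM. This library also held the highest level of 19.9% of all other genes. In the floxed experiment, 54 of 83 members were lowest in CRE male 2, and 35 were highest in GFP male 3.

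**Figure D2:**
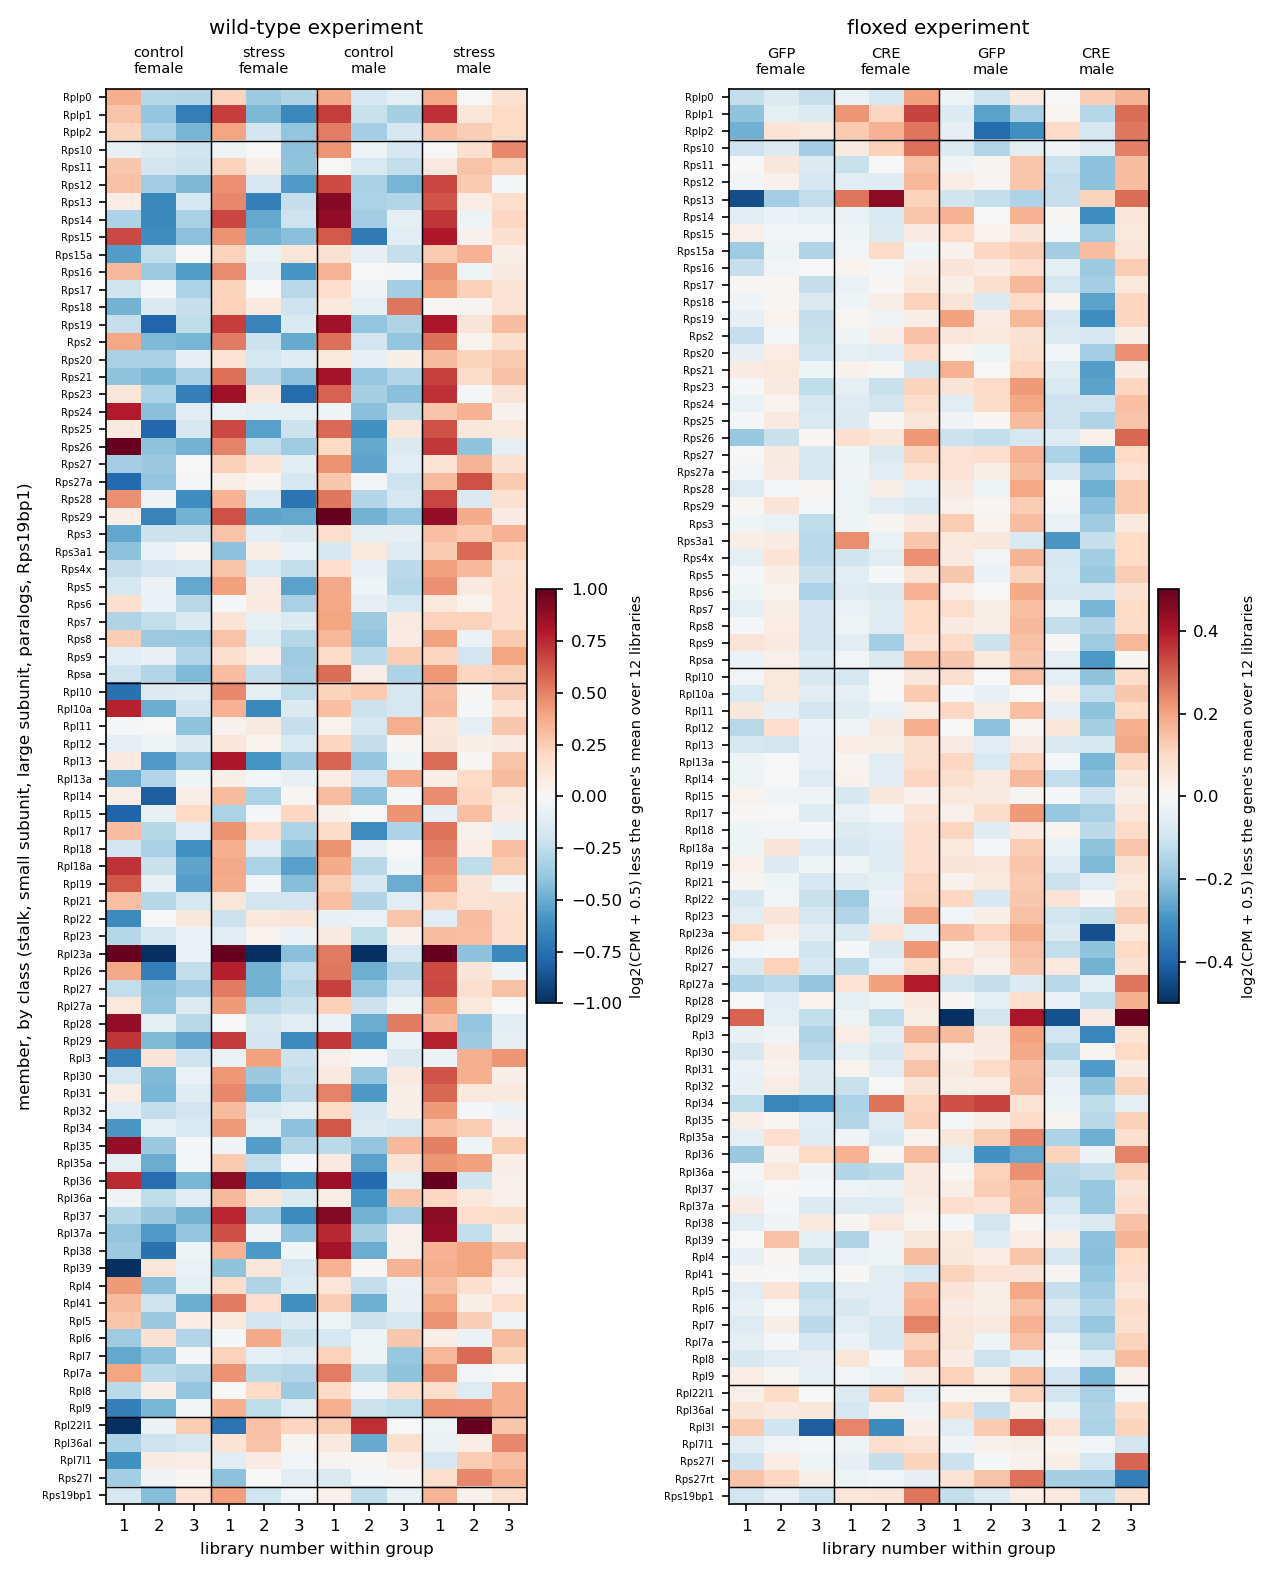
Level of each member that passed the low-count filter (rows, by class) in the 12 libraries of each experiment (columns, by group and library number), as log2(CPM + 0.5) less the member's mean over those libraries; the colour range is ±1 for wild-type and ±0.5 for floxed libraries. In some libraries most members shift together, such as stressed female 1, control male 1 and stressed male 1 among the wild-type libraries. CRE male 2 in the floxed experiment holds the lowest level of 54 of 83 members. Control female 1 does not shift as a whole, with 9 members at their highest and 18 at their lowest level.

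Levels per kilobase of transcript spread widely among the members. In floxed libraries the lowest core values were 34.8 CPM per kb in the large subunit, 25.8 in the small subunit and 65 in the stalk. With the paralogs, levels in floxed libraries ran from 0.355 CPM per kb for Rpl3l to 700 CPM per kb for Rplp1, with a median of 163. Rps29 (492 CPM per kb) and Rps15 (469 CPM per kb), both of the small subunit, came next. In wild-type libraries Rps15 (429 CPM per kb), Rps21 (427 CPM per kb) and Rplp1 (342 CPM per kb) were highest, with a median of 88.8. Low values of Rps15a rest on an annotated transcript of 5130 bases and are uncertain. They were 15.2 CPM per kb in wild-type and 25.8 in floxed libraries, the lowest small subunit value in each experiment. The stalk is the flexible arm of the large subunit that recruits elongation factors, made of P0 (Rplp0) and of dimers of P1 (Rplp1) and P2 (Rplp2). In floxed libraries Rplp1 stood at 700, Rplp2 at 228 and Rplp0 at 65 CPM per kb.

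Reads of ribosomal protein genes can be shared with processed pseudogenes. A search of the GENCODE M21 transcripts found 370 pseudogene rows at least 95% identical over at least 100 bases to 1 of 73 members. These rows held 0.396% to 1.07% of the reads of members and copies in a wild-type library and 1.21% to 1.65% in a floxed library. For single members the part was larger: Gm8730, a copy of Rplp0, held 17482 reads in the floxed and 16 in the wild-type libraries, and copies took 30.8% of the reads of Rplp0 and its copies in the floxed experiment. The same share was 22.6% for Rps3a1, 23.2% for Rpl29, 11.3% for Rpl15 and 10.3% for Rps13. In the wild-type experiment it was 0.291% for Rplp0 and 0.577% for Rps13, but 22.5% for Rpl13. Levels of these members are uncertain by that much, and the 2 experiments differ in how reads were split between parent and copy.

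Paralogs were lower per kilobase than their parents in both experiments, except that Rpl22l1 was above Rpl22 in floxed libraries. Rpl3l, a paralog used in heart and skeletal muscle, had 217 reads over the 12 floxed libraries (0.355 CPM per kb, against 352 for Rpl3). Rpl10l and Rpl39l, known from male germ cells, had few or no reads, 0 in all 24 libraries for Rpl10l, and 10 over the wild-type libraries and 35 over the floxed ones for Rpl39l. Neither passed the filter in either experiment. Rpl22l1 was at 93.1 CPM per kb in floxed libraries against 35.3 for Rpl22, and at 22.5 against 30.4 in wild-type libraries. The order in floxed libraries rests on annotated transcripts of 552 bases for Rpl22l1 and 2048 for Rpl22. In CPM not divided by length, Rpl22l1 was below Rpl22 there, at a mean of 51.4 against 72.3. In floxed libraries Rpl7l1 was at 26.4 CPM per kb against 183 for Rpl7, Rpl36al at 32.6 against 125 for Rpl36a, and Rps27l, known as a p53 target, at 14.8 against 413 for Rps27. Rps27rt, a retrocopy of Rps27, had 7 reads over the wild-type libraries and 289 over the floxed ones.

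Stress in females was tested over the 12 wild-type libraries, in edgeR's quasi-likelihood model with a mean per group. No member of the 81 tested passed an adjusted p of 0.05, nor did any of the 15249 genes (0% called). DESeq2 and limma-voom also called 0 members. At an unadjusted p below 0.05 there were 2 members, both with positive changes, against 1.68% of all genes. The fitted log2 change was positive for 64 of 81 members (79.0%), against 48.7% of all genes, with a median of 0.17 against -0.01 for all genes tested. The median standard error of a member was 0.23, larger than that median. The large subunit had a median log2 change of 0.15 (33 of 42 positive), the small subunit of 0.18 (25 of 31 positive) and the 3 stalk genes of 0.13.

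Rps3, a small subunit protein at the entry of the mRNA channel, had the smallest p in females. It was at 179, 222 and 222 CPM in the controls and at 314, 238 and 233 CPM in the stressed females. The 2 groups did not overlap, with stressed female 1 the highest. The log2 change was 0.33 (SE 0.14, edgeR adjusted p = 0.9999). The groups also did not overlap for Rpl36al and Rps7, which makes 3 members, all higher, against 2.72% of all genes, and no member was lower without overlap (2.58% of all genes). Rps15a had a log2 change of 0.35 (SE 0.16) and Rps18 of 0.33 (SE 0.18), both small subunit proteins whose groups overlapped. The members of smallest p with negative changes were Rpl35, Rpl23a, Rpl28 and Rps24. Each of these was highest in control female 1: Rpl35 at 39.9, 16.5 and 21.3 CPM in controls against 20.9, 14.5 and 17.4 CPM in stressed females, and Rps24 at 158, 68.1 and 84.2 CPM against 87.1, 85.7 and 85.6 CPM. The median log2 change of members was 0.01 without stressed female 1, 0.25 without control female 1 and 0.29 without stressed female 3, and with the 4 libraries numbered 1 left out (chosen after seeing the data) it was 0.06.

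In these females, the summed level of the cortical excitatory neuron markers was 407 to 509 CPM in controls and 367 to 411 CPM under stress, and 11 of its 13 tested genes had negative changes. Its defining gene Slc17a7 was at 29.9 to 109 CPM in controls and 9.89 to 26.6 CPM under stress, so it was 0 in no library. Adding that list's score to the model gave a median change of members of -0.02. The choroid plexus score was fitted too, and the medians averaged over the sexes with either score are given below. The part of these lists in the result was not tested, and no cause is read from these fits. With the replicate number as a block, 15 members had an unadjusted p below 0.05, against 5.92% of all genes, and 0 were called.

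Stress in males likewise gave 0 called members of 81, while 1 of 15249 genes was called (0.00656%). DESeq2 and limma-voom also called 0 members. Unadjusted p-values below 0.05 were found for 6 members, all positive, against 2.81% of all genes. The change was positive for 78 of 81 members (96.3%), against 49.7% of all genes, with a median of 0.22 and a median standard error of 0.23. The median was 0.19 for the large subunit (40 of 42 positive), 0.24 for the small subunit (30 of 31 positive) and 0.2 for the stalk (3 of 3 positive). The 3 members with negative changes were Rps18, Rpl15 and Rpl28.

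Rps3a1, a small subunit protein, was at 95.3, 114 and 96.9 CPM in control males and at 128, 158 and 125 CPM in stressed males. All stressed males were above all controls, with a log2 change of 0.42 (SE 0.16, edgeR adjusted p = 0.9999). Rpl23, a large subunit protein that binds Mdm2, was at 207, 163 and 200 CPM in controls and at 240, 239 and 219 CPM under stress, again without overlap (log2 change 0.29, SE 0.12). Rps3 was at 291, 242 and 243 CPM in controls and at 318, 309 and 327 CPM under stress, so that its groups did not overlap in males either. Rpl5, which with Rpl11 carries the 5S RNA and holds Mdm2 in check, was at 68.8, 61.6 and 63.8 CPM in controls and 97.8, 84.5 and 69.8 CPM under stress. Rpl11 itself was at 66.7, 57.9 and 83.9 CPM against 71.01, 61.1 and 78.7 CPM, with full overlap. Rps27l was at 5.32 to 5.96 CPM in controls and 6.77 to 8.47 CPM under stress. In all, 9 members were higher without overlap, against 3.67% of all genes, and 0 lower (4.24% of all genes).

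Levels in control males differed by library. For Rplp1 they were 260, 137 and 128 CPM, against 267, 175 and 184 CPM in the stressed males, so control male 1 was as high as the stressed libraries. Rps19, which is mutated in Diamond-Blackfan anaemia, was at 94.3, 39.7 and 42.5 CPM in controls and at 92.8, 57.2 and 64.8 CPM in stressed males. The median change of members was 0.41 without control male 1, 0.07 without control male 2, 0.08 without stressed male 1 and 0.34 without the 4 libraries numbered 1. Choroid plexus and ependyma markers summed to 189, 1893 and 4819 CPM in control males and to 352, 266 and 407 CPM in stressed males, and all 14 genes of the list had negative changes (median -3.07). Their defining gene Ttr was at 8.35 to 2285 CPM in controls and 34.2 to 140 CPM under stress. With that list's score in the model the median change of members was 0.03. The cortical score was fitted too, and the medians averaged over the sexes with either score are given below. The part of these lists in the result was not tested, and no cause is read from these fits. With the replicate number as a block, 29 members had an unadjusted p below 0.05, against 7.4% of all genes, and 0 were called, at a smallest adjusted p of 0.135. Each stressed male had a higher share of counts in members than the control male of the same number.

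Averaged over the sexes, 0 members were called, against 2 of 15249 genes (0.0131%), also with DESeq2 and limma-voom. At an unadjusted p below 0.05 there were 9 members, all positive, against 3.21% of all genes. The change was positive for 75 of 81 members (92.6%), against 48.6% of all genes. In the same contrast all 17 medium spiny neuron markers and all 14 choroid plexus markers were negative (medians -0.14 and -1.12), and 67 of 76 oxidative phosphorylation genes were positive (median 0.13). The spiny neuron markers summed to 11080 to 14390 CPM in control and 9422 to 13010 CPM in stressed females, and to 11740 to 13130 CPM in control and 10610 to 11900 CPM in stressed males. The part of the spiny neuron and oxidative phosphorylation genes in the result was not tested. With the choroid plexus score in the model the median of members was 0.14. Rps3 had the smallest p (log2 change 0.31, SE 0.1, edgeR adjusted p = 0.9997), followed by Rpl7 (0.37, SE 0.13) and Rps15a (0.32, SE 0.11). The median was 0.18, and it was 0.09 without stressed female 1, 0.27 without control male 1 and 0.08 with the cortical score in the model. With the replicate number as a block, 40 members had an unadjusted p below 0.05, against 10.4% of all genes, and 0 were called, at a smallest adjusted p of 0.243. Between the sexes the response to stress differed for 0 members (0% of all genes called), and 0 had an unadjusted p below 0.05 in edgeR, against 2 in DESeq2 and 1.19% of all genes. The median difference was -0.04, with 36 of 81 positive, against 49.5% of all genes. Its sign changed with single libraries, from -0.28 without stressed female 1 to 0.09 without control male 2.

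The same libraries served to compare females with males over both treatments. No member was called, against 6 of 15249 genes (0.0393%), and DESeq2 and limma-voom also called 0. The change was negative, that is lower in females, for 75 of 81 members, with a median of -0.23, while 49.5% of all genes were positive. At an unadjusted p below 0.05 there were 15 members, all lower in females, against 5.03% of all genes. Rps20 had a log2 difference of -0.29 (SE 0.09, edgeR adjusted p = 0.971) and Rps27a, which is made as a fusion with ubiquitin, of -0.42 (SE 0.14). Rps27a was at 24.9, 32.6 and 42.8 CPM in control females, 45.2, 44 and 38.3 in stressed females, 52.1, 42.3 and 37.4 in control males and 53.9, 67.4 and 51.9 in stressed males. The 2 sexes overlapped. Leaving out 1 library at a time moved the median between -0.31 and -0.15, the former without stressed female 1 and the latter without control male 1. In the same contrast 73 of 76 oxidative phosphorylation genes, 62 of 76 mitochondrial ribosome genes and all 12 endothelial, 12 oligodendrocyte and 10 astrocyte markers were negative as well, with medians of -0.18, -0.13, -0.18, -0.06 and -0.06. So were all 14 choroid plexus markers (median -0.65) and 11 of 12 microglia markers (median -0.15). With the choroid plexus score in the model the median of members was -0.3, and the part of the other lists was not tested.

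**Figure D3:**
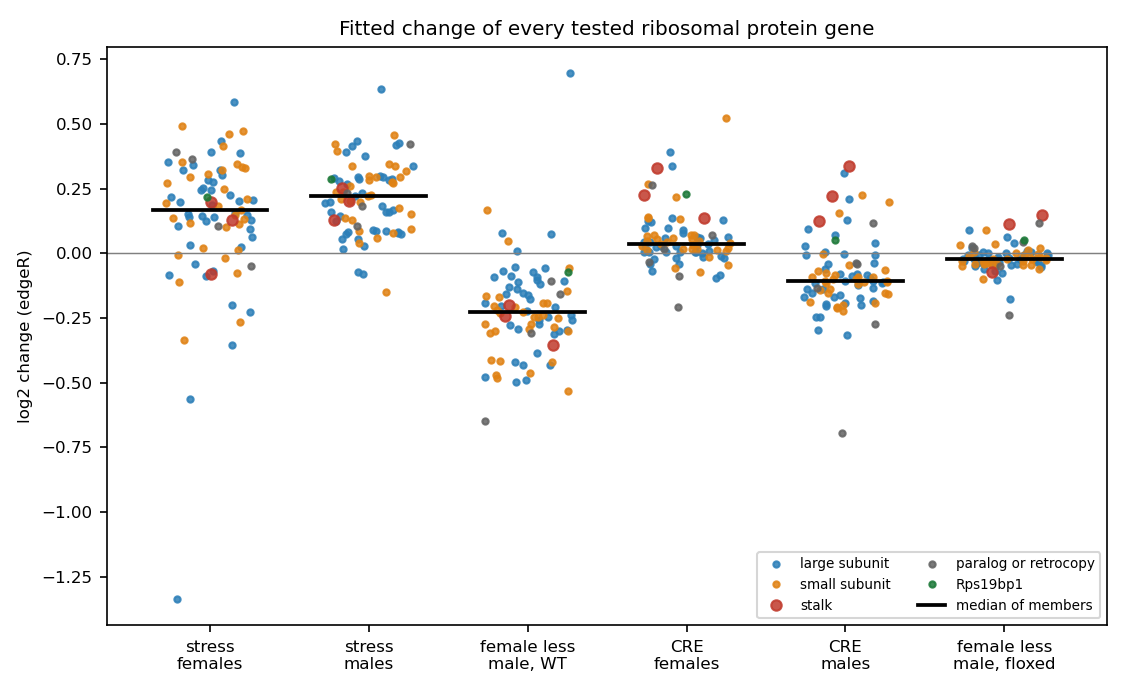
Log2 change of each tested member (points, by class; y axis) in 6 contrasts (x axis): stressed less control and CRE less GFP in each sex, and female less male in each experiment. Black bars are the medians, 0.17, 0.22, -0.23, 0.04, -0.11 and -0.02 from left to right, and in both CRE columns the 3 stalk genes lie above the median of the members.

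Cre in females was tested over the 12 floxed libraries. No member of the 83 tested was called, and none of 17597 genes (0%). DESeq2 called 1 member, Rps13, at an adjusted p of 0.0171 (0.193% of all genes), and limma-voom called 0. At an unadjusted p below 0.05 there were 8 members, all positive, against 5.96% of all genes. The change was positive for 66 of 83 members (79.5%), against 50.1% of all genes, but small, with a median of 0.04 and a median standard error of 0.08. It was -0.01 without CRE female 3, when 30 of 83 members were positive, 0.02 without GFP female 3 and 0.07 without GFP female 2. All 17 medium spiny neuron markers were positive too, with a median of 0.16 and sums of 9848, 11300 and 9601 CPM in GFP and 11770, 10010 and 12460 CPM in CRE females. Negative changes were found for 10 of 12 oligodendrocyte, 11 of 12 microglia, 9 of 12 endothelial and 7 of 10 astrocyte markers. Their medians were -0.11, -0.04, -0.11 and -0.04. Cortical excitatory markers were positive for 9 of 15 and choroid plexus markers for 5 of 13. The part of these lists in the result was not tested.

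Rps13, a small subunit protein, was at 44.7, 54.1 and 55.9 CPM in GFP females and at 73.4, 83.2 and 66 CPM in CRE females. All CRE females were above all GFP females, with a log2 change of 0.52 (SE 0.11, edgeR adjusted p = 0.452). Rpl27a, a large subunit protein, was at 116, 117 and 113 CPM against 136, 149 and 170 CPM, also without overlap (log2 change 0.39, SE 0.1). Rps10, shown above with its run of 10 pyrimidines, was at 64.4, 66 and 61.5 CPM against 71.7, 75.3 and 84 CPM. Rplp1 was at 301, 336 and 331 CPM in GFP and at 404, 374 and 438 CPM in CRE females (log2 change 0.33, SE 0.1), and Rplp2 at 85.6, 106 and 105 against 111, 114 and 122 CPM (log2 change 0.23, SE 0.11). The groups overlapped for Rplp0, at 81, 83.8 and 81.2 against 86, 82.9 and 102 CPM. In all, 10 members were higher without overlap, against 6.5% of all genes, and 3 lower, against 5.04%: Rpl36al, Rps29 and Rps27rt. Rps27rt was at 0.678 to 0.772 CPM in GFP and 0.621 to 0.641 CPM in CRE females.

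Cre in males called 0 of 83 members, while 872 of 17597 genes were called (4.96%; 3.68% higher and 1.28% lower). Limma-voom called 0 and DESeq2 called 6 (against 10.2% of all genes), of which Rpl36 and Rplp2 were higher and Rpl9, Rpl34, Rpl35a and Rpl37 lower. Unadjusted p-values below 0.05 were found for 22 members, 4 positive and 18 negative, against 24.8% of all genes. The change was positive for 16 of 83 members (19.3%), against 50.9% of all genes, with a median of -0.11 and a median standard error of 0.08. The median was -0.11 for the large subunit (8 of 42 positive) and -0.11 for the small subunit (3 of 31 positive), and 0.22 for the stalk, whose 3 genes were positive.

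Rps27rt had the smallest p in males, at 0.714, 0.774 and 0.892 CPM in GFP and 0.527, 0.525 and 0.41 CPM in CRE males (log2 change -0.69, SE 0.2, edgeR adjusted p = 0.0647). Its groups did not overlap, at a level near the filter. Rpl36, of the large subunit, was at 59.1, 49.3 and 51 CPM in GFP males and at 66, 59.7 and 72.5 CPM in CRE males (log2 change 0.31, SE 0.1, edgeR adjusted p = 0.0802). Rpl9 was at 281, 265 and 288 CPM against 242, 221 and 263 CPM (log2 change -0.2, SE 0.06). Rpl34 was at 83.4, 84.3 and 70 CPM in GFP males and at 65.4, 60.9 and 64.5 CPM in CRE males (log2 change -0.32, SE 0.1). Rplp2 was at 98.5, 77.4 and 81.8 CPM against 108, 95.5 and 122 CPM, with overlap (log2 change 0.34, SE 0.11). Rplp1 was at 330, 287 and 310 CPM against 348, 314 and 420 CPM, also with overlap. In all, 2 members were higher without overlap (Rpl36 and Rps26), against 14.7% of all genes, and 8 lower, also against 14.7%.

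The 3 CRE male libraries differed among themselves. Rpsa, also known as a laminin receptor, was at 359, 339 and 359 CPM in GFP males and at 317, 268 and 330 CPM in CRE males, with CRE male 2 lowest and CRE male 3 nearest to the controls. Without CRE male 3, 10 members were called, all lower: Rpl3, Rpl9, Rpl14, Rpl17, Rpl23a, Rpl35a, Rpl37, Rpl37a, Rps19 and Rps27, and the median was -0.17. With that library left out 7.29% of all genes were called, and 1.86% of all genes were called lower. Without CRE male 2 the median was -0.05, with 0 called. Cortical excitatory markers summed to 278 to 323 CPM in GFP males and to 967, 945 and 527 CPM in CRE males, and 12 of 15 genes of that list were called higher. Slc17a7, their defining gene, was at 1.29 to 15.3 CPM in GFP and at 428, 409 and 168 CPM in CRE males. Choroid plexus markers summed to 178 to 213 CPM in GFP and to 374, 3345 and 235 CPM in CRE males, and medium spiny neuron markers to 10850 to 11690 CPM and to 9807, 5486 and 10490 CPM. All 17 medium spiny neuron markers had negative changes in males (median -0.34, none called). All 12 oligodendrocyte, all 12 microglia and 9 of 10 astrocyte markers were positive (medians 0.25, 0.26 and 0.12). Endothelial markers were negative for 10 of 12 (median -0.06), and the part of these lists was not tested. Adding the choroid plexus score to the model gave a median change of members of 0.03 with 0 called. Adding the cortical score gave -0.12, and 0 members and 0 of all genes were called. The choroid plexus and cortical sums were each higher in every CRE than in every GFP male. These fits therefore separate the scores from CRE poorly, and no conclusion is drawn from the loss of calls.

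**Figure D4:**
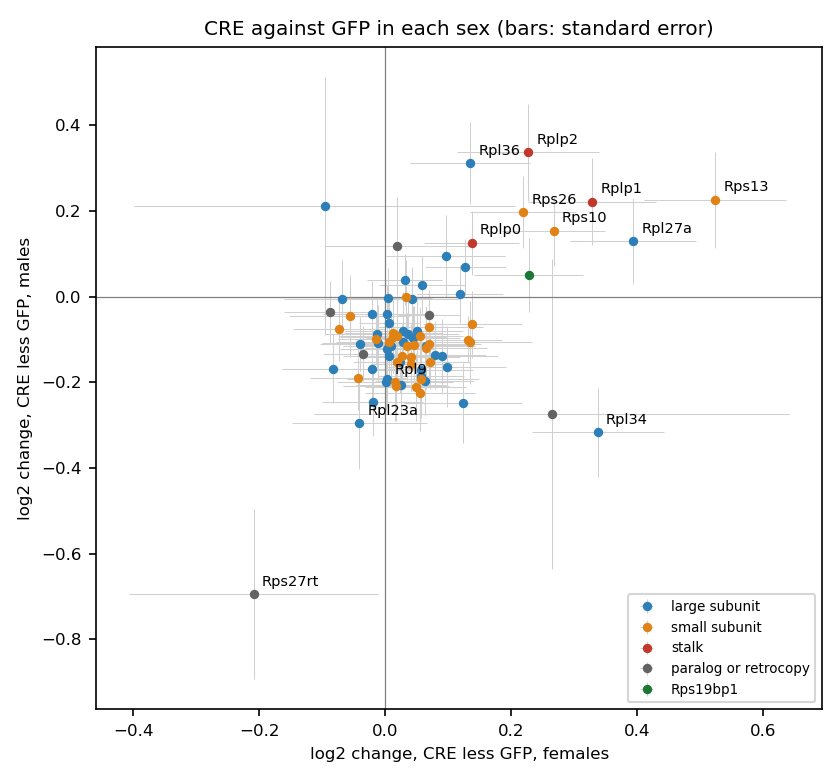
Log2 change of CRE against GFP in females (x axis) and males (y axis) for the 83 tested members, with standard errors; the 2 sexes share no libraries. Most members lie just right of 0 in females and below 0 in males, while Rps13, Rplp1, Rplp2, Rplp0, Rpl27a, Rps10, Rps26 and Rpl36 lie above 0 in both.

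Averaged over the sexes, 1 member was called, Rps13, which was higher with CRE (log2 change 0.38, SE 0.08, edgeR adjusted p = 0.0461), against 249 of 17597 genes called (1.42%), of which 228 were higher (1.3%) and 21 lower (0.119%). In males Rps13 was at 56.8, 55.9 and 54.7 CPM with GFP and at 56.1, 65.7 and 74 CPM with CRE, so that CRE male 1 lay within the GFP range. The call was not kept with limma-voom (adjusted p = 0.0589), the replicate block (0.118), the length and GC offset (0.0595), the choroid plexus score in the model (0.102) or the cortical score in it (0.294, at a log2 change of 0.69). It was kept without GFP female 3 or CRE male 1 and lost without any other single library, at adjusted p-values between 0.0336 and 0.132 and log2 changes between 0.33 and 0.42. With the reads of its copies added to Rps13 the change was 0.32 (SE 0.06, edgeR adjusted p = 0.0267). GFP males were then at 63.15, 58.86 and 61.66 CPM and CRE males at 68.16, 68.48 and 83.29 CPM, without overlap. Females were then at 55.75, 62.99 and 65.04 CPM with GFP and at 77.38, 85.05 and 76.9 CPM with CRE. Rps13 also hosts the small nucleolar RNA gene Snord14a on the same strand.

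Next in order of p, and not called, came Rplp1 (log2 change 0.28, SE 0.07, edgeR adjusted p = 0.0895), Rpl27a (0.26, SE 0.07), Rps10 (0.21, SE 0.06), Rps26 (0.21, SE 0.06) and Rplp2 (0.28, SE 0.08). DESeq2 called these 5 beside Rps13, against 3.69% of all genes. Rps26, which touches the message where it leaves the small subunit, was the 1 member that was higher without overlap in both females and males before copies were added. It was at 65.5, 69.2 and 75.3 CPM in GFP and 79.3, 78 and 87 CPM in CRE females, and at 69.3, 68.6 and 70.4 CPM in GFP and 71.5, 76.2 and 91.3 CPM in CRE males. At an unadjusted p below 0.05 there were 14 members, 9 positive and 5 negative, against 14.2% of all genes. The change was positive for 25 of 83 members (30.1%), against 51.2% of all genes, with a median of -0.04. It was -0.08 without CRE male 3, -0.0077 without CRE male 2 and 0.04 with the choroid plexus score in the model.

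**Figure D5:**
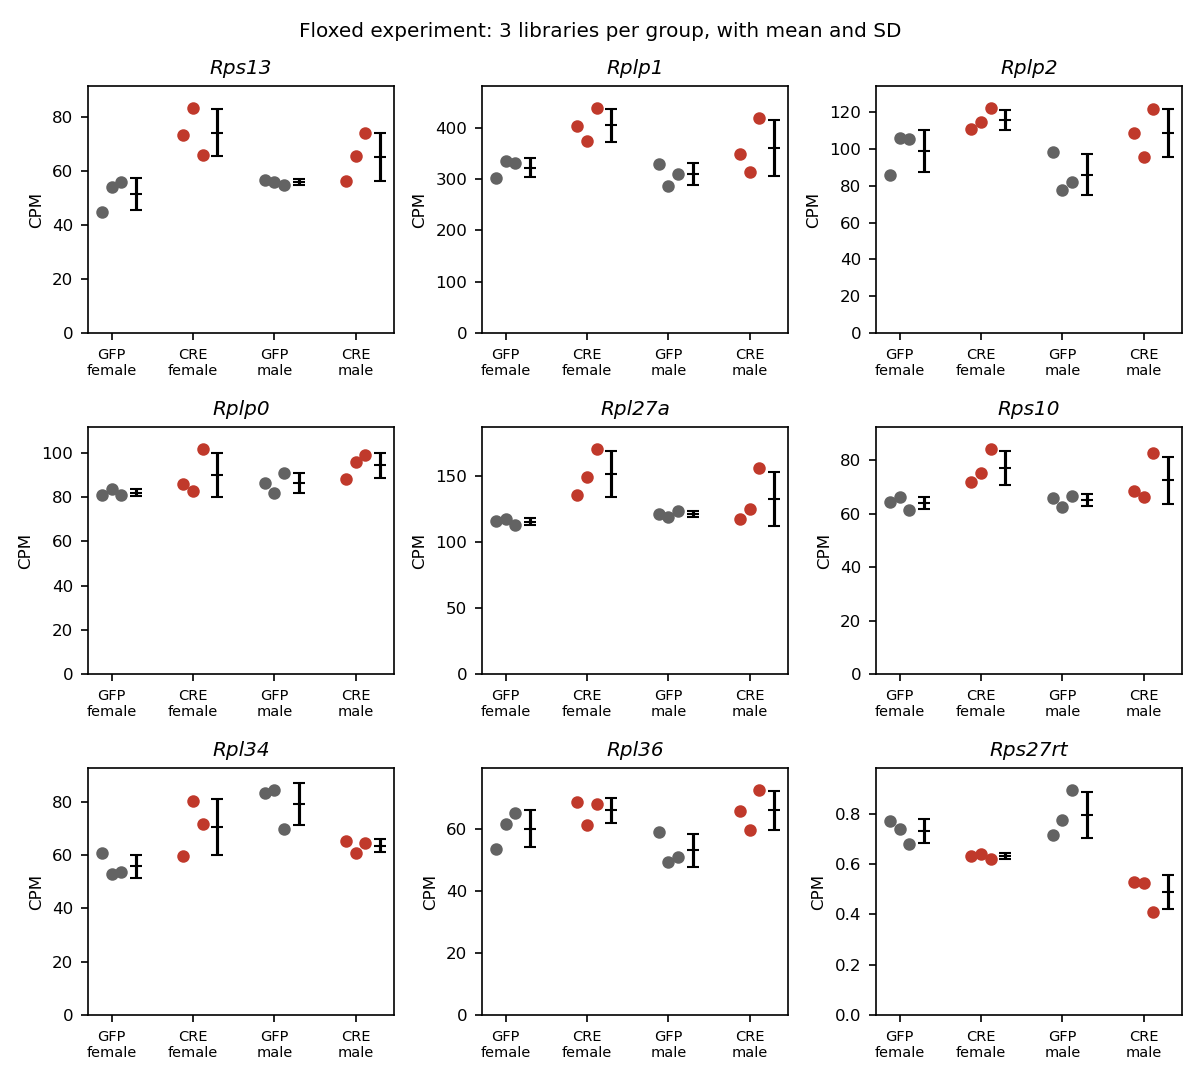
CPM of 9 members (panels; y axis from 0) in each library of the 4 floxed groups (x axis; grey GFP, red CRE), with mean and SD of 3 libraries. For Rps13, Rplp1, Rplp2, Rpl27a and Rps10 all CRE females lie above all GFP females, and for Rpl34 CRE males lie below GFP males.

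The response to Cre differed between females and males for 0 members, against 2 of 17597 genes called (0.0114%). Limma-voom also called 0, and DESeq2 called 1, Rpl34, at an adjusted p of 0.00506 (3.46% of all genes). In edgeR 11 members had an unadjusted p below 0.05, all positive, against 17.5% of all genes. The difference (the female less the male change) was positive for 75 of 83 members (90.4%), against 50.2% of all genes, with a median of 0.14. Rpl34, a large subunit protein, had the smallest p, at 60.9, 53 and 53.7 CPM in GFP and 59.7, 80.5 and 71.8 CPM in CRE females. It went from 70 to 84.3 CPM in GFP males to 60.9 to 65.4 CPM in CRE males, which gave a difference of 0.65 (SE 0.15, edgeR adjusted p = 0.095). The median difference was 0.01 when the choroid plexus score was in the model, 0.07 without CRE male 2 and 0.21 without CRE male 3. For the 3 stalk genes the median difference was 0.01. Females and males of the floxed experiment differed in 0 members, against 12 of all genes (0.0682%), also with DESeq2 and limma-voom, and at an unadjusted p below 0.05 in 1, Rpl34, against 6.68% of all genes. Of the 83 members 24 were positive, that is higher in females (28.9%, against 49.3% of all genes), with a median of -0.02, or 0.02 without CRE male 3. All 17 medium spiny neuron, all 12 endothelial, 11 of 12 microglia and 9 of 10 astrocyte markers were positive in that contrast. All 13 choroid plexus, 13 of 15 cortical excitatory and 11 of 12 oligodendrocyte markers were negative. Their part was not tested.

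On the X chromosome lie 4 members, Rpl10, Rpl36a, Rpl39 and Rps4x. None was called between the sexes in either experiment. Rps4x was at 232 to 267 CPM in GFP females, 252 to 286 CPM in GFP males, 237 to 298 CPM in CRE females and 225 to 272 CPM in CRE males, and the 4 groups overlapped. In the wild-type experiment Rpl39 had a log2 difference of -0.49 (SE 0.19, edgeR adjusted p = 0.971), with control female 1 lowest at 9.53 CPM. Rps6, whose phosphorylation by S6 kinases is the usual readout of mTOR activity, had changes of -0.02 and 0.04 under stress and of 0.07 and -0.11 with CRE in females and males. These are message levels, and its phosphorylation was not measured.

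Other genes of the pathway were counted from lists. Of 16 other genes listed as having a TOP start (such as Eef1a1, Eef2 and Pabpc1), 0 were called in any contrast. Most are translation factors, but the list also holds others such as Npm1, Nap1l1 and Hnrnpa1, and these starts were not checked here. The median change of the list was 0.02 and 0.09 under stress and 0.04 and -0.12 with CRE in females and males. Of 29 ribosome biogenesis genes 0 were called in any contrast, with medians between -0.05 and 0.02 in those 4 contrasts. Of 20 genes of mTOR and the S6 kinases, 1 was called higher and 1 lower with CRE in males and in the average, and 0 in females or under stress. Of all genes, 3.68% were called higher and 1.28% lower in males, and 1.3% and 0.119% in the average. Akt1s1, which encodes an inhibitor subunit of mTOR complex 1, was higher (log2 change 0.45, SE 0.08, edgeR adjusted p = 0.015 in males), and its change in females was 0.47 (SE 0.08, adjusted p = 0.448). Rps6ka5, a kinase of the RSK and MSK family, was lower in males (log2 change -0.44, SE 0.07, edgeR adjusted p = 0.00786). Of 76 tested mitochondrial ribosome genes, the separate set that translates in mitochondria, 0 were called under stress. Their stress changes were positive for 52 in females and 63 in males, against 48.7% and 49.7% of all genes. With CRE, 4 were called higher in males, against 3.68% of all genes, and 4 in the average, against 1.3%.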

How the data were processed

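The authors deposited raw counts per Ensembl gene, whole numbers without scaling. The submitters' processing notes list Bowtie2 2.1.0, TopHat2 2.0.9, HTSeq 0.6.0 and the builds NCBIM37 and mm9, without settings. How strand and reads with several matches were treated is not given in the sources used here. Gene names, lengths and copies came from GENCODE M21 (build GRCm38) by Ensembl ID (32938 of 37991 matched), and promoters from RefSeq (GRCm38.p6).

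Each experiment was fitted alone in edgeR 4.0.16 (R 4.3.3; filterByExpr, TMM, robust quasi-likelihood F test), with Benjamini-Hochberg adjustment over all genes tested and calls at 0.05. limma 3.58.1 and DESeq2 1.42.0 served as alternatives. CPM are counts-per-million of the TMM-scaled library size, and CPM per kb divides by transcript length. On simulated data, 1.25-fold changes were recovered for 0%, 1.5-fold for 9% and 2-fold for 62.1% of changed genes for stress in females (15249 genes), and for 25.4%, 71.6% and 95.5% for Cre in females (17597 genes).

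Same-numbered wild-type females deviated together (correlations 0.59, 0.33 and 0.52), so the replicate block was read as a pairing there. The labels call the libraries independent biological replicates. No 2 libraries were identical. Members and lists were chosen with earlier results of these data known. Named members were a fixed list, the 4 of smallest p per direction in each stress and Cre contrast within a sex, called members, and the 3 highest and lowest per kilobase; others, such as those without overlap, were named after their values were seen.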

Additional observations from a re-analysis of the deposited data

How the results depend on the processing

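Under every alternative run, 2 of them added after seeing the data (copies added to their parent, and the 4 libraries numbered 1 left out), 0 members were called for stress in either sex, their average or difference, or between the sexes in either experiment. With DESeq2, 1 member was called for Cre in females, 6 in males, 6 in the average and 1 in the difference. For Cre in males the length and GC offset gave 7 called members (6.81% of all genes called), leaving out 1 library gave 0 to 10 (10 without CRE male 3, with 7.29% of all genes called), and adding the choroid plexus score to the model moved the median from -0.11 to 0.026. In the average of the sexes 2 members (Rplp1 and Rps10) were called when the choroid plexus score was added, and 0 with the cortical score, the length and GC offset, limma-voom and the replicate block; leaving out 1 library gave 0 to 1, which was Rps13 without CRE male 1 or GFP female 3 and Rplp1 without CRE male 2. The median difference between the sexes in the stress response was -0.31 without the 4 libraries numbered 1 and -0.28 with the cortical score, and -0.28 to 0.089 when 1 library was left out. For the difference in the Cre response it was 0.013 with the choroid plexus score. Without mitochondrial genes the share of counts in members was 1.22% in GFP females, 1.29% in GFP males and 1.26% in CRE females. In the 3 CRE males it was 1.17%, 1.113% and 1.356%, and in the wild-type libraries it ranged from 0.624% to 1.017%. The cause of these shifts was not tested. Genes called for Cre in males numbered 872, and 1794 with DESeq2, 191 with the replicate block, 35 when the choroid plexus score was added and 0 when the cortical score was. Both lists summed higher in every CRE than in every GFP male, so the fits with these scores separate them from CRE poorly. The replicate block turned no other call of a member. Over all genes, same-numbered floxed females correlated at 0.09, -0.14 and -0.45 and floxed males at -0.11, 0.05 and 0.11, so the numbers were not taken as pairs there. Same-numbered wild-type males correlated at 0.34, 0.24 and 0.08, each above every differently numbered pair (-0.27 to 0.07). These numbers were not taken as pairs either, though a pairing in wild-type males was not settled. Over the members alone the same-numbered values were 0.68, 0.63 and 0.27 in wild-type males, 0.49, -0.22 and -0.25 in floxed females and 0.47, 0.37 and 0.42 in floxed males.

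Depth and 3 libraries per group limit the precision. For stress within a sex the median standard error of a member, 0.23, was above the median change in both sexes, so differences of that size were not detectable for single members. Where a group was left with 2 libraries the spread came from all groups of the fit.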
